A study of Mus musculus with 18 samples.

Results

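The Nr4a family of orphan nuclear receptors has 3 genes in the mouse, Nr4a1, Nr4a2 and Nr4a3, and all 3 were followed across 18 libraries of mouse cortex taken after spreading depolarization (SD), a wave in which neurons and glia lose their membrane potential as it spreads slowly through the cortex. The genes were found by their symbols in the 6 deposited comparison tables, and they are 3 of the 13479 genes that any of the tables lists. The animals were healthy female C57BL/6 mice of 7 to 8 weeks. In the optogenetic (opto) system the mice were heterozygous for Thy1-ChR2-YFP, in which the Thy1 promoter drives a light-gated channel in neurons, and light of 2 mW for 20 s set off each SD. In the KCl system wild-type mice received KCl. A stimulated mouse of either system had 4 SDs over 2 h, 30 min apart. Each system has 3 libraries of the left hemisphere of stimulated mice (opto SD, KCl SD), 3 of the right hemisphere of the same mice (opto contralateral, KCl contralateral) and 3 of sham mice (opto sham, which carried the same transgene, and NaCl sham, in wild-type mice). The 18 libraries come from 12 mice, 6 of them stimulated. The effects of SD, of the stimulus itself and, within a mouse, of hemisphere cannot be told apart. The sources used here give neither the time of collection nor the hemisphere of sham mice.

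NR4A proteins are transcription factors of the nuclear receptor fold whose ligand pocket is filled by bulky side chains, so their activity follows largely from how much protein is made. In neurons they are immediate early genes: calcium entry acts through the CREB, MEF2 and SRF transcription factors on their promoters within minutes to hours. The proteins bind a DNA element called the NBRE as monomers, and Nr4a1 and Nr4a2 can pair with the retinoid X receptor. In the cortex Nr4a1 is known for its rise after neuronal activity and for a role in limiting excitatory synapses, Nr4a2 also marks neurons of layer 6b and the claustrum, and Nr4a3 is likewise induced by activity.

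The stretches before the 3 genes are shown because CREB binds the cyclic AMP response element (CRE), and its half-site, CGTCA or TGACG on the other strand, is in capitals. The letters are from RefSeq on GRCm38.p6, 5′ to 3′ on the strand of each gene. The Nr4a1 stretch is chr15:101266596-101266845 on the plus strand, the Nr4a2 stretch is chr2:57124004-57124253 on the minus strand, and the Nr4a3 stretch is chr4:48045055-48045152 on the plus strand. The last is shorter, because the rest of its 250 bases lies inside the gene as the tables place it.
Nr4a1: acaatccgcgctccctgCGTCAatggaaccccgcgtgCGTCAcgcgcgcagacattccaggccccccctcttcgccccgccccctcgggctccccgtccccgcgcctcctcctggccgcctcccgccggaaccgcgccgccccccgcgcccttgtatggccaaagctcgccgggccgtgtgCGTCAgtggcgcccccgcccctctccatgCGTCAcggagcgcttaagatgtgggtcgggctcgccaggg
Nr4a2: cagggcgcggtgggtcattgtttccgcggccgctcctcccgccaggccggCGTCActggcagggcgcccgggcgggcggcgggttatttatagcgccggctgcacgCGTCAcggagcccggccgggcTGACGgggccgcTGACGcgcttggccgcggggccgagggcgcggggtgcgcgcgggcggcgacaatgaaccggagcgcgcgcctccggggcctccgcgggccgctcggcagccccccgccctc
Nr4a3: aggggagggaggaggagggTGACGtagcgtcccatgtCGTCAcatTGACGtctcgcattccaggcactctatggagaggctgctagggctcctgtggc

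Within 250 bases before the RefSeq start, each of the 3 genes had 4 half-sites on either strand, and 3 of the 4 of Nr4a3 lie in the part printed. Among 32851 RefSeq promoter stretches of that length, 17.8% held at least 1 half-site and 0.137% held at least 4. Bases G and C made up 74.4%, 80% and 63.6% of the 250 bases of Nr4a1, Nr4a2 and Nr4a3. The 32851 stretches were not matched for this. The full CRE, TGACGTCA, occurred in none of the 3 and in 1.55% of all stretches. The SRF-binding CArG box occurred in none of the 3 and in 1.47% of all. A MEF2 site stood before Nr4a2, at bases -167 to -158 from its start, and in 2.92% of all stretches. The NBRE, AAAGGTCA, which the proteins themselves bind, was in none of the 3 and in 1.34% of all. These are matches of letters and show no binding.

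The deposited unit is FPKM, fragments scaled by transcript length and library size, which allows levels of different genes to be set side by side. Depth cannot be read from it. Over the listed genes FPKM totalled 217205 to 225813 in the opto libraries and 223564 to 237318 in the KCl libraries. Neuronal markers were present throughout: the 5 listed genes Rbfox3, Snap25, Syt1, Slc17a7 and Gad1 summed to 703 to 865 FPKM. Other regions were present in uneven amounts. The summed FPKM of 5 of 5 striatal markers (Drd1, Drd2, Adora2a, Ppp1r1b and Rgs9) spanned 57.3 to 104 in opto SD, 111 to 130 in opto contralateral and 48.7 to 123.4 in opto sham. It spanned 72.9 to 145 in KCl SD, 24.1 to 103 in KCl contralateral and 31.2 to 93.5 in NaCl sham. The 4 choroid plexus markers, led by Ttr, summed to between 3.54 and 1120 FPKM over the 18 libraries, and no striatal or choroid plexus marker was at 0. In bulk tissue, fewer cells of a type and less RNA per cell cannot be told apart.

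Nr4a1 (ENSMUSG00000023034.6, chr15:101266846-101274792, GRCm38) was the member with the large difference. It had 112.8, 132.2 and 160.6 FPKM in opto SD, against 13.5, 18.2 and 19.9 FPKM in opto contralateral and 22.1, 16.3 and 26.0 FPKM in opto sham. In the KCl system it had 118.1, 99.4 and 138.4 FPKM in KCl SD, against 10.9, 18.3 and 19.1 FPKM in KCl contralateral and 48.3, 18.6 and 35.8 FPKM in NaCl sham. All 6 SD libraries lay above all 12 others, the lowest SD library at 99.4 FPKM and the highest of the others at 48.3 FPKM. The group means, in order, were 135 ± 24.03 FPKM (SD, n = 3) in opto SD, 119 ± 19.5 in KCl SD, 34.2 ± 14.9 in NaCl sham, 21.5 ± 4.90 in opto sham, 17.2 ± 3.34 in opto contralateral and 16.1 ± 4.49 in KCl contralateral. Of the neighbours in that order, KCl SD and NaCl sham alone had ranges that did not overlap.

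Nr4a2 (ENSMUSG00000026826.13, chr2:57106830-57124003, minus strand) had the smallest differences of the 3 genes between the SD libraries and the others. It had 14.2, 11.995 and 12.03 FPKM in opto SD, against 13.2, 9.01 and 10.6 FPKM in opto contralateral and 11.2, 6.89 and 12.7 FPKM in opto sham. It had 21.8, 18.3 and 14.4 FPKM in KCl SD, against 9.73, 19.2 and 21.3 FPKM in KCl contralateral and 14.2, 17.8 and 7.46 FPKM in NaCl sham. The SD libraries overlapped the contralateral and the sham libraries in both systems. Its order of means ran by system and, within each system, from SD to contralateral to sham. The means were 18.2 ± 3.70 FPKM in KCl SD, 16.7 ± 6.15 in KCl contralateral and 13.2 ± 5.25 in NaCl sham. Next came 12.7 ± 1.26 in opto SD, 10.9 ± 2.10 in opto contralateral and 10.3 ± 3.02 in opto sham (SD, n = 3 each). All neighbours in that order overlapped.

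Nr4a3 (ENSMUSG00000028341.9, chr4:48045153-48086447) lay between them in the size of its difference. It had 14.7, 11.4 and 17.7 FPKM in opto SD, against 7.87, 5.01 and 6.35 FPKM in opto contralateral and 7.07, 5.198 and 10.3 FPKM in opto sham. It had 18.3, 12.5 and 16.4 FPKM in KCl SD, against 7.54, 8.83 and 13.8 FPKM in KCl contralateral and 10.9, 10.9 and 6.51 FPKM in NaCl sham. The opto SD libraries lay above both other opto groups. The KCl SD libraries lay above NaCl sham and overlapped KCl contralateral, whose replicate 3 stood above KCl SD replicate 2. The means were 15.7 ± 2.95 FPKM in KCl SD, 14.6 ± 3.19 in opto SD, 10.1 ± 3.31 in KCl contralateral, 9.45 ± 2.54 in NaCl sham, 7.53 ± 2.60 in opto sham and 6.41 ± 1.43 in opto contralateral (SD, n = 3 each), and all neighbours in this order overlapped.

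**Figure D1:**
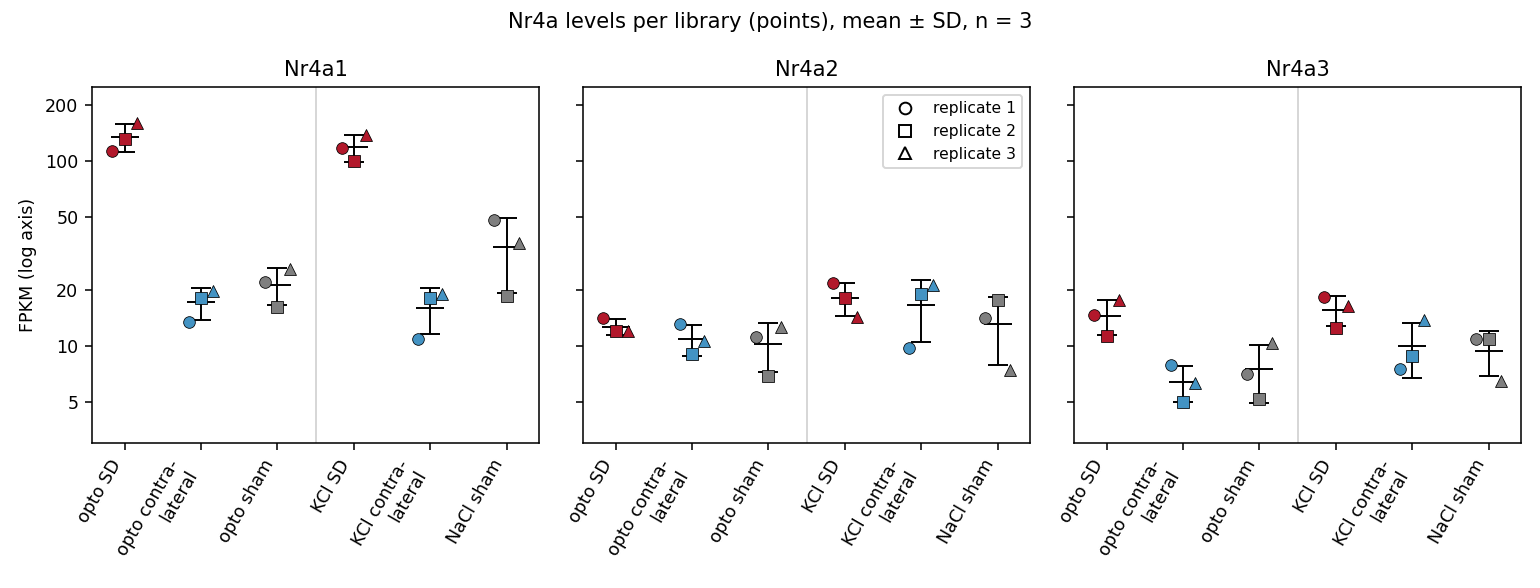
FPKM of Nr4a1, Nr4a2 and Nr4a3 on a log axis in each of the 18 libraries (points, the symbol gives the replicate number), with the mean and SD of each group of 3 as bars. The 6 red SD points of Nr4a1, at 99.4 to 160.6 FPKM, stand above all other Nr4a1 points, while those of Nr4a2 fall among the others.

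Nr4a1 made up most of the family's FPKM on the SD side and less than that on the contralateral side. Over the 6 contralateral libraries the Nr4a1 mean, 16.7 FPKM, was still above those of Nr4a2, 13.8, and Nr4a3, 8.23. In KCl contralateral alone the mean of Nr4a2, 16.72 FPKM, was above that of Nr4a1, 16.10 FPKM. The summed FPKM of the family was 158 ± 21.1 in the SD libraries, 38.7 ± 9.69 in the contralateral libraries and 48.1 ± 14.8 in the sham libraries (SD, n = 6 each). Nr4a1 made up 80.3 ± 4.21% of that sum in the SD libraries, 43.9 ± 9.01% in the contralateral libraries and 57.0 ± 11.3% in the sham libraries. The SD shares, 74.7 to 85.0%, all lay above the highest share in the other libraries, 71.9% in NaCl sham replicate 3. By level among all genes of a library, Nr4a1 ranked 128th to 266th from the highest in the SD libraries and 2222nd to 3972nd in the contralateral libraries.

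**Figure D2:**
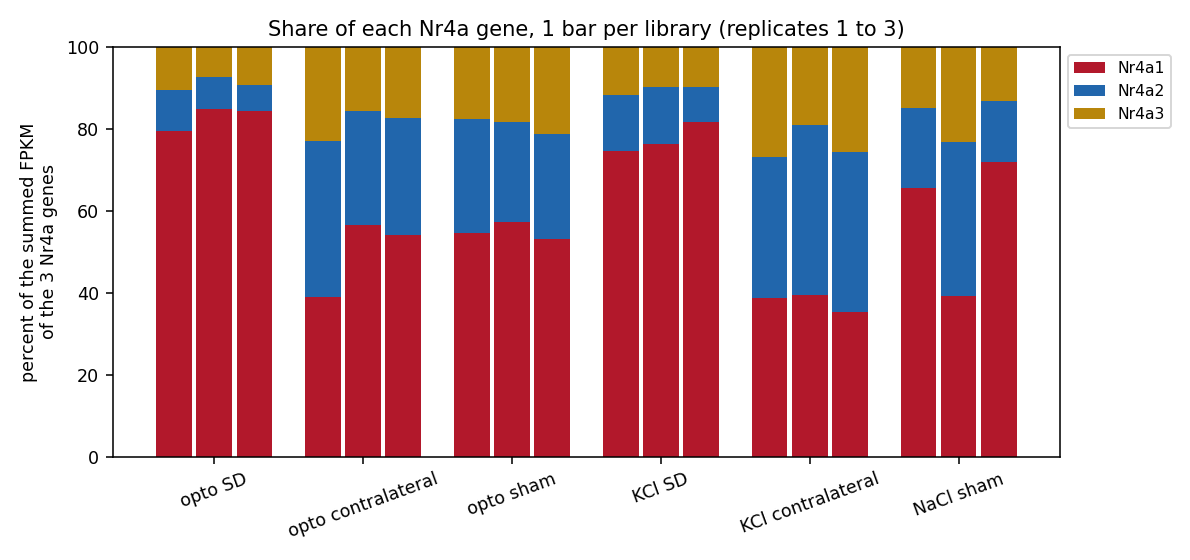
Percent of the summed FPKM of the 3 Nr4a genes that each gene contributed, as 1 stacked bar per library from 0 to 100 percent. The red Nr4a1 share is 74.7 to 85.0% in the SD libraries and 35.3 to 56.5% in the contralateral libraries.

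The first comparison set the SD hemisphere against the contralateral hemisphere of the same mouse, over the 6 stimulated mice. Nr4a1 was 8.36, 7.26 and 8.06 times as high on the SD side in opto mice 1, 2 and 3, and 10.8, 5.44 and 7.25 times as high in KCl mice 1, 2 and 3. It rose in every mouse, whichever way SD was set off. In a limma fit of log2(FPKM + 0.5) with the mouse as a block, Nr4a1 rose by 2.91 on the log2 scale (SE 0.11, 95% interval 2.66 to 3.15), or 7.49-fold, with a limma adjusted p of 5.35e-06. Adjusted p-values are Benjamini-Hochberg over all 12894 genes of that fit, a call is an adjusted p under 0.05, and 1.61% of those genes were called. Its difference was positive in 6 of 6 mice, for an exact sign-flip p of 0.03125 (two-sided), the smallest that 6 mice allow.

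Nr4a3 was 1.87, 2.27 and 2.79 times as high on the SD side in opto mice 1, 2 and 3, and 2.43, 1.42 and 1.19 times as high in KCl mice 1, 2 and 3. It too was higher in 6 of 6 mice (exact sign-flip p = 0.03125). The fit gave a rise of 0.89 (SE 0.15, 95% interval 0.54 to 1.24), or 1.85-fold, with a limma adjusted p of 0.0316. The call depended on which mice were included. Without opto mouse 1, 2 or 3 the difference was 0.89, 0.84 or 0.78 with limma adjusted p = 0.110, 0.0991 or 0.0842, and without KCl mouse 1 or 2 it was 0.82 or 0.97 with limma adjusted p = 0.1199 or 0.0545. Without KCl mouse 3 it was 1.02 with limma adjusted p = 0.0177.

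Nr4a2 was 1.08, 1.33 and 1.14 times as high on the SD side in opto mice 1, 2 and 3, and 2.24, 0.951 and 0.678 times as high in KCl mice 1, 2 and 3. The opto mice had small differences of 1 sign, and the KCl mice spread to both sides of 1. The difference was 0.20 (SE 0.18, 95% interval -0.23 to 0.62) with a limma adjusted p of 0.690, and it was positive in 4 of 6 mice (exact sign-flip p = 0.469). A rise of up to 0.62 on the log2 scale lies within that interval.

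The members also differed from each other within the mouse. The difference between the hemispheres was larger for Nr4a1 than for Nr4a2 by 2.71 ± 0.41 on the log2 scale (SD over 6 mice) and larger for Nr4a1 than for Nr4a3 by 2.02 ± 0.36. It was larger for Nr4a3 than for Nr4a2 by 0.69 ± 0.37. All 3 pairs had the same order in 6 of 6 mice, each with an exact sign-flip p of 0.03125, which stayed 0.03125 after Benjamini-Hochberg adjustment over the 3 pairs.

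**Figure D3:**
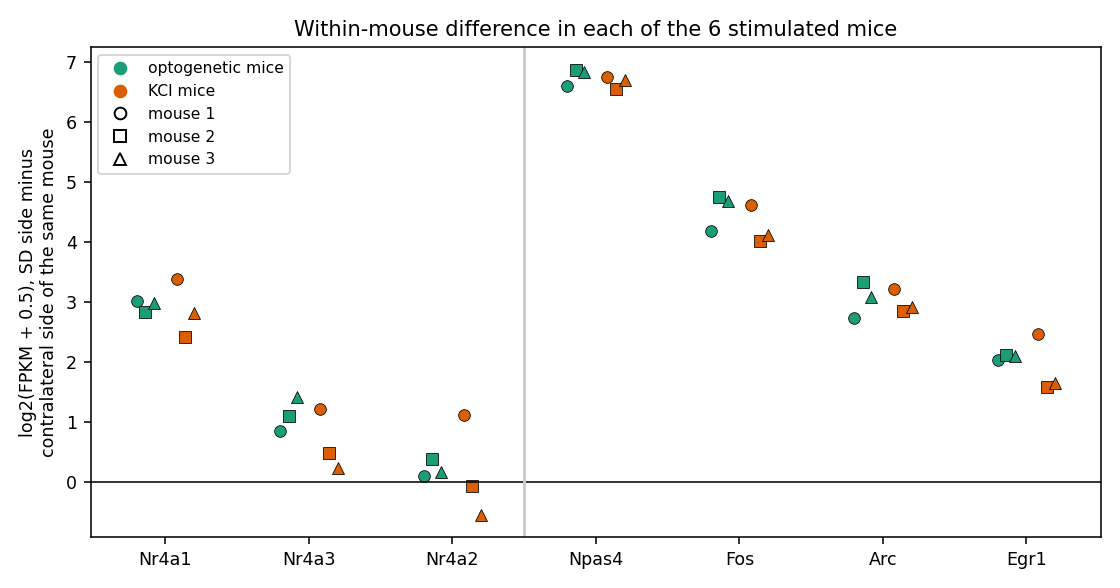
Difference in log2(FPKM + 0.5) between the SD side and the contralateral side of each of the 6 stimulated mice (1 point per mouse, colour for the system, symbol for the mouse) for the 3 Nr4a genes and 4 well-known early genes. All Nr4a1 and Nr4a3 points lie above 0, and Nr4a2 points lie on both sides of it.

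Within each system the same comparison had 3 libraries a side. In the opto system Nr4a1 rose by 2.94 (SE 0.20, limma adjusted p = 0.000480), where 0.531% of 13001 genes were called. In the KCl system it rose by 2.87 (SE 0.33, limma adjusted p = 0.0102), where 0.347% of 12972 genes were called. Nr4a3 differed by 1.13 (SE 0.25, limma adjusted p = 0.145) in the opto system. There a block for the replicate number over the 9 libraries gave a limma adjusted p of 0.0272. That block also groups sham mice with stimulated mice, with which they share only the number. A block for the mouse over the 6 stimulated libraries gave a limma adjusted p of 0.0657. Nr4a3 differed by 0.65 (SE 0.26, limma adjusted p = 0.459) in the KCl system. Nr4a2 differed by 0.22 (SE 0.21, limma adjusted p = 0.836) in the opto system and by 0.17 (SE 0.35, limma adjusted p = 0.908) in the KCl system, where it was -0.17 without KCl contralateral replicate 1.

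The second comparison set the SD hemisphere against the cortex of sham mice, which had no SD. In the opto system Nr4a1 rose by 2.64 (SE 0.20), or 6.22-fold, with a limma adjusted p of 0.000980, where 0.477% of genes were called. In the KCl system the difference was 1.87 (SE 0.33), or 3.65-fold, and did not pass the threshold (limma adjusted p = 0.135), where 0.0694% of genes were called. The KCl SD libraries, at 99.4 FPKM or more, lay above NaCl sham, whose 3 libraries ranged from 18.6 to 48.3 FPKM.

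The NaCl sham libraries also spread in some other activity-induced genes, but less in Egr1, an early gene with 102, 86.5 and 87.1 FPKM. Fos, a subunit of the AP-1 factor, had 48.0, 14.2 and 30.8 FPKM in NaCl sham and Npas4, an activity-dependent factor, had 27.5, 1.81 and 51.4 FPKM. In opto sham Fos had 9.19, 5.89 and 23.1 FPKM and Npas4 had 1.99, 1.41 and 9.90 FPKM. Nr4a1, Fos and Npas4 were each lowest in replicate 2 of both sham groups. Nr4a2 and Nr4a3 were also lowest in opto sham replicate 2, but among the NaCl sham libraries they were lowest in replicate 3.

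Over both systems, in 1 fit of the 18 libraries, Nr4a1 rose by 2.25 (SE 0.21), or 4.77-fold, with a limma adjusted p of 2.77e-05, where 0.967% of 12930 genes were called. In an exact permutation test within systems it had a two-sided p of 0.005, the smallest that 400 arrangements allow. Nr4a3 differed by 0.83 (SE 0.19), or 1.78-fold, with a limma adjusted p of 0.0590 and an exact permutation p of 0.005. Its limma adjusted p was 0.0478 without KCl SD replicate 2 and 0.0232 without opto sham replicate 3, at differences of 0.91 and 0.95. Nr4a3 was not called in the other 17 of 19 alternatives, where its limma adjusted p ran up to 0.161. By system it differed by 0.94 (SE 0.25, limma adjusted p = 0.312) in opto and 0.73 (SE 0.26, limma adjusted p = 0.543) in KCl. Nr4a2 differed by 0.42 (SE 0.22, limma adjusted p = 0.505, exact permutation p = 0.09), and its exact p was 0.035 without either NaCl sham replicate 2 or opto sham replicate 3, at differences of 0.55 and 0.51. In the other 13 of 15 alternatives that exact permutation p was not under 0.05 and ran up to 0.23. By system Nr4a2 differed by 0.34 (SE 0.21, limma adjusted p = 0.692) in opto and 0.51 (SE 0.35, limma adjusted p = 0.751) in KCl.

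**Figure D4:**
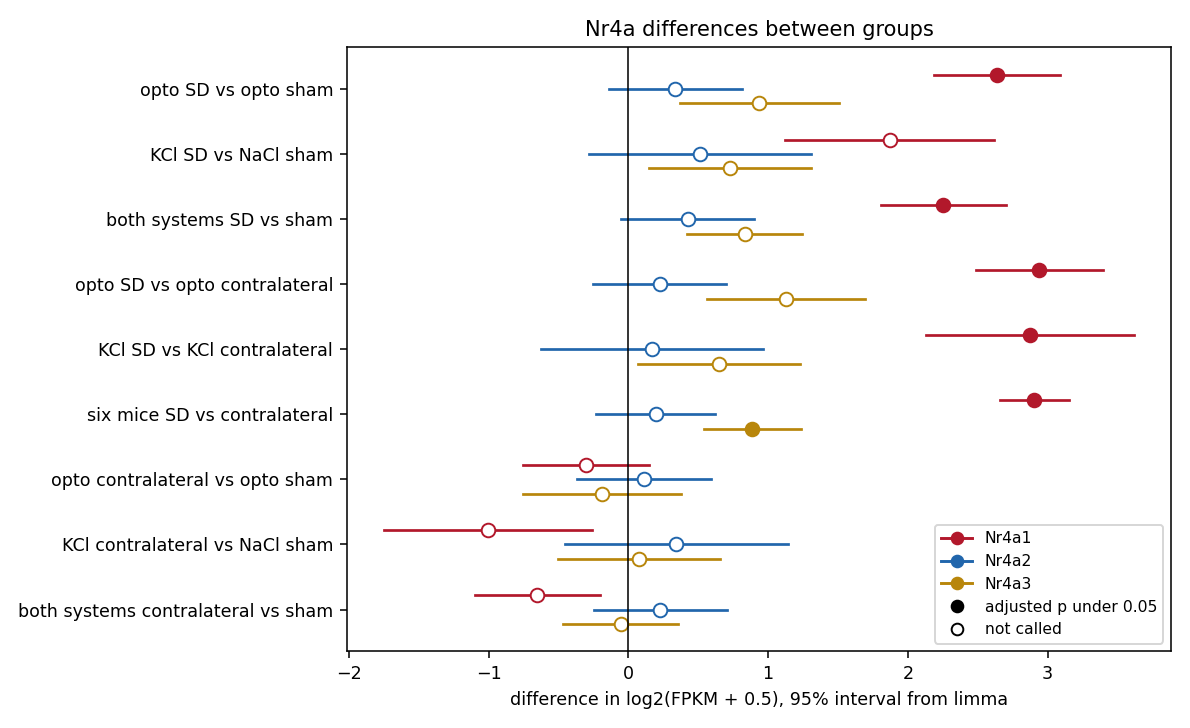
Differences in log2(FPKM + 0.5) for the 3 Nr4a genes in 9 comparisons, with 95% intervals from limma and filled points at an adjusted p under 0.05. Nr4a1 is called in 5 of the 6 comparisons of the SD side, Nr4a3 in that over 6 mice alone, and Nr4a2 in none.

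The third comparison asked whether the unstimulated hemisphere differed from sham. Nr4a1 had 16.7 ± 3.59 FPKM in the 6 contralateral libraries and 27.8 ± 12.1 FPKM in the 6 sham libraries (SD), and the 2 sets overlapped. The difference was -0.65 (SE 0.21) with a limma adjusted p of 0.978, where 0.0155% of genes were called, and the exact permutation p was 0.05, not under the threshold. Without NaCl sham replicate 2, opto sham replicate 2 or opto contralateral replicate 3 that exact p was 0.02, 0.025 or 0.04, at differences of -0.84, -0.74 and -0.71. The other 12 of 15 alternatives gave an exact permutation p that was not under 0.05 and ran up to 0.11. By system the difference was -0.30 (SE 0.20, limma adjusted p = 0.872) in opto, where 0.00769% of genes were called, and -1.002 (SE 0.33, limma adjusted p = 0.877) in KCl, where 0.00771% were. Nr4a2 differed by 0.23 (SE 0.22, limma adjusted p = 0.979, exact permutation p = 0.42) and Nr4a3 by -0.06 (SE 0.19, limma adjusted p = 0.995, exact permutation p = 0.81). The Nr4a3 difference turned positive, at 0.064 or less, when KCl contralateral replicate 1, NaCl sham replicate 1 or 2, opto contralateral replicate 2 or opto sham replicate 3 was left out.

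The opto and the KCl response were compared as a difference of differences. Against the contralateral side, the opto response minus the KCl response was 0.07 (95% interval -0.82 to 0.96, limma adjusted p = 0.992) for Nr4a1, 0.06 (-0.90 to 1.01, limma adjusted p = 0.993) for Nr4a2 and 0.48 (-0.35 to 1.30, limma adjusted p = 0.913) for Nr4a3. Against sham it was 0.77 (-0.13 to 1.66, limma adjusted p = 0.881) for Nr4a1, -0.18 (-1.13 to 0.77, limma adjusted p = 0.972) for Nr4a2 and 0.21 (-0.61 to 1.04, limma adjusted p = 0.954) for Nr4a3. The percent of genes called was 0 in both, with 794 and 715 of 12930 genes, 6.14% and 5.53%, at an unadjusted p under 0.05. All 6 intervals include 0, and their upper bounds run from 0.77 to 1.66. The larger Nr4a1 value against sham goes with sham levels of 22.1, 16.3 and 26.0 FPKM in opto sham, against 48.3, 18.6 and 35.8 FPKM in NaCl sham. Between those 2 sham groups Nr4a1 differed by -0.58 (SE 0.30, limma adjusted p = 0.204), Nr4a2 by -0.30 (limma adjusted p = 0.566) and Nr4a3 by -0.32 (limma adjusted p = 0.466), where 15.9% of genes were called. Without NaCl sham replicate 2 the Nr4a1 difference was -0.96 with a limma adjusted p of 0.0273. It was not called in the other 12 of 13 alternatives, where the limma adjusted p ran up to 0.589. The sham groups differ in genotype and sham procedure, which cannot be told apart.

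Cell type markers were set beside these values. Nr4a2 marks layer 6b, subplate and claustrum neurons, and the 8 markers of those cells (8 of 8 listed, among them Cplx3, Nxph4 and Ctgf) summed to 51.1 to 56.8 FPKM in opto SD, 49.8 to 54.1 in opto contralateral and 44.3 to 48.2 in opto sham. They summed to 59.0 to 66.7 FPKM in KCl SD, 59.0 to 64.3 in KCl contralateral and 51.3 to 68.0 in NaCl sham. Between the hemispheres of a mouse that sum differed by -0.124 to 0.191 on the log2 scale. The striatal sum differed by far more, by -0.439, -0.312 and -0.956 in opto mice 1, 2 and 3 and by -0.196, 1.6 and 2.49 in KCl mice 1, 2 and 3. In KCl mice 2 and 3, in which the striatal sum was higher on the SD side, all 3 genes had their lowest ratios of SD to contralateral side. These were 5.44 and 7.25 for Nr4a1, against 7.26 to 10.8 in the other 4 mice, 0.951 and 0.678 for Nr4a2, against 1.08 to 2.24, and 1.42 and 1.19 for Nr4a3, against 1.87 to 2.79. Fos, at 17.0 and 18.1, and Egr1, at 3.02 and 3.16, also had their lowest ratios in KCl mice 2 and 3. For Npas4 and Arc opto mouse 1, at 131 and 6.79, lay below KCl mouse 3, at 135.7 and 7.67. The part of dissection in the values of the 3 genes was not tested. Astrocyte, neuronal, microglial, endothelial and oligodendrocyte marker sums differed between the hemispheres of a mouse by no more than 0.0522, 0.126, 0.14, 0.182 and 0.263 in size on the log2 scale. The meningeal sum differed by -0.414 to 0.366. The monocyte and neutrophil sum, for which 2 of 5 markers are listed, was 0.144 to 5.82 FPKM in the 18 libraries and differed by -2.14 in KCl mouse 1 and by 0.629 to 1.59 in the other 5 mice. The choroid plexus sum differed by -6.59, 4.26 and -5.57 in opto mice 1, 2 and 3 and by 0.011, 0.707 and 5.25 in KCl mice 1, 2 and 3. The part of these lists in the Nr4a values was not tested.

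The 3 genes were then set beside the rest of the nuclear receptor superfamily. Of 45 other nuclear receptor genes, 29 were tested, and 0 passed in either direction over the 6 mice, where 1.61% of all genes were called, with 5 at an unadjusted p under 0.05, as were 14.3% of all genes. Their median difference was 0.0031 and that of all genes -0.02, and they ranged from -0.16 for Rora, a clock-related receptor and the one with the smallest p (limma adjusted p = 0.0834), to 0.33 for Rxrg, a retinoid X receptor. By size Nr4a1 stood 1st, Nr4a3 2nd and Nr4a2 5th of the 32 tested receptors. The 3 retinoid X receptor genes, partners of Nr4a1 and Nr4a2, were not called: Rxrb, the one with the smallest p, differed by -0.05 (limma adjusted p = 0.584). Rxrg differed by -0.76 (SE 0.35, limma adjusted p = 0.601) in opto and by 1.42 (SE 0.57, limma adjusted p = 0.466) in KCl between SD and contralateral side, and the striatal sum had the same sign as these in 5 of 6 mice. Against sham over both systems 0 of the 29 receptors passed, with 1 at an unadjusted p under 0.05, as were 11.3% of all genes: Nr2f6 (-0.16, limma adjusted p = 0.422).

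**Figure D5:**
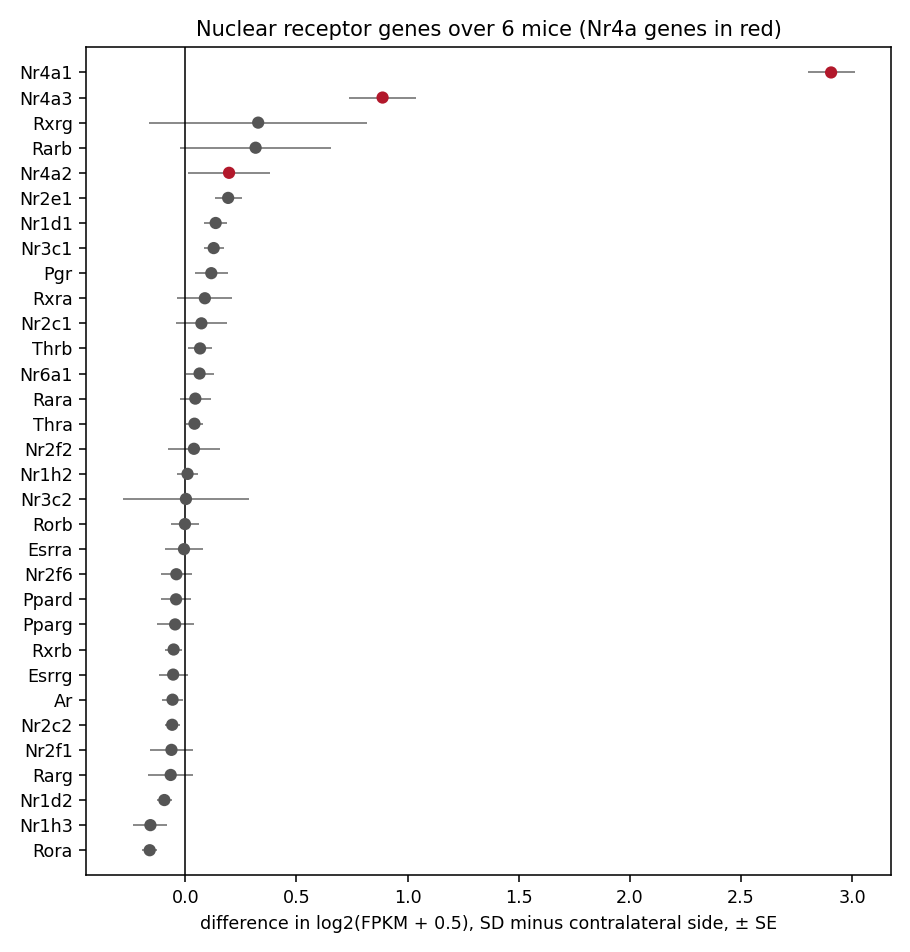
Difference between the SD and the contralateral side over 6 mice for the 32 tested nuclear receptor genes, as log2(FPKM + 0.5) with SE, ordered by size. Nr4a1 at 2.91 and Nr4a3 at 0.89 stand apart from the others, which reach 0.33 at most, and Nr4a2 lies among them at 0.20.

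Other transcription factors induced by neuronal activity rose with Nr4a1. Of 24 listed, 23 were tested and 17 rose over the 6 mice, where 1.08% of all genes were called higher and 0.527% lower. Ier2, an immediate early gene, rose by 1.75 (SE 0.04, limma adjusted p = 3.42e-07). Klf10 and Klf2, Krüppel-like factors, fell by 0.45 (limma adjusted p = 0.00259) and 0.50 (limma adjusted p = 0.0247). The median difference of the list was 1.02. With the Nr4a genes counted in, Nr4a1 stood 4th of 26 by size, after Npas4 (6.71, SE 0.05), Fos (4.39, SE 0.11) and Fosb (3.46, SE 0.13), and just before Junb (2.82, SE 0.08). Their limma adjusted p-values were 2.88e-10 for Npas4, 8.93e-07 for Fos, 5.76e-06 for Fosb and 8.93e-07 for Junb. Nr4a3 stood 15th and Nr4a2 23rd. Against sham over both systems 16 of the 23 rose and 0 fell, where 0.727% of all genes were called higher and 0.24% lower, and Nr4a1 stood 5th, Nr4a3 15th and Nr4a2 18th of 26.

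Among genes reported as NR4A targets in other cells, 12 of 14 were tested and 2 rose over the 6 mice, where 1.08% of all genes were called higher. Bdnf, a growth factor of synapses, rose by 0.90 (SE 0.10, limma adjusted p = 0.00384), and Fosl2, an AP-1 subunit that is also on the list of activity-induced factors, rose by 1.01 (SE 0.13, limma adjusted p = 0.00777). Both also rose against sham over both systems, by 0.89 (limma adjusted p = 0.0175) and 0.93 (limma adjusted p = 0.00571), where 0.727% of all genes were called higher. Whether NR4A proteins had a part in either rise was not tested. The median of the list was 0.05 over the 6 mice and that of all genes -0.02. Hspa5, a chaperone of the endoplasmic reticulum, differed by 0.50 (limma adjusted p = 0.125), and Th, the dopamine-synthesis enzyme that Nr4a2 controls in midbrain neurons, by 0.18 (limma adjusted p = 0.600). Other targets of the list went the other way, uncalled. Aldh1a1 differed by -0.19 (limma adjusted p = 0.153) and Pomc by -0.14 (limma adjusted p = 0.541). Ret differed by -0.08 (limma adjusted p = 0.801) and Nrp1 by -0.008 (limma adjusted p = 0.988).

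Genes upstream of the family were also examined at the RNA level. Of 21 genes of the CREB, MEF2 and SRF pathways 0 passed over the 6 mice, where 1.61% of all genes were called. At an unadjusted p under 0.05 were 3, the same share as the 14.3% of all genes. Srf, which binds the CArG box, differed by 0.30 (SE 0.07, limma adjusted p = 0.0948). Against sham over both systems Srf rose by 0.30 (SE 0.06, limma adjusted p = 0.0228), where 0.967% of all genes were called. Of 13 corepressor and deacetylase genes 0 passed in either comparison, where 1.61% and 0.967% of all genes were called. At an unadjusted p under 0.05 were 2 of them over the 6 mice and 1 against sham, where 14.3% and 11.3% of all genes were. Hdac4, a deacetylase that represses MEF2 targets, had the smallest p in both, at -0.25 (limma adjusted p = 0.132) over the 6 mice and -0.23 (limma adjusted p = 0.122) against sham.

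Likeness was measured among 12500 genes with established symbols, so genes with clone-based, Gm or Rik symbols were left out. The genes most like each member were those with the smallest root mean square (RMS) difference in centred log2(FPKM + 0.5) over the 18 libraries. For Nr4a1, whose own RMS spread was 1.30, these were Junb (0.154), an AP-1 subunit, Dusp6 (0.284) and Dusp5 (0.429), phosphatases of ERK, Arc (0.291), a synaptic capsid-like protein, and Egr4 (0.382), a zinc finger factor. Junb had levels close to those of Nr4a1 in each group, at 156 ± 19.4 FPKM in opto SD, 21.2 ± 1.97 in opto contralateral and 27.1 ± 3.75 in opto sham, and 128 ± 17.1 in KCl SD, 18.6 ± 4.77 in KCl contralateral and 38.9 ± 18.3 in NaCl sham (SD, n = 3 each). Nr4a3 was 45th in likeness to Nr4a1, at 0.957, and Nr4a2 was 747th, at 1.25.

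For Nr4a3, with an RMS spread of 0.544, the nearest genes were Irs2 (0.249), an adaptor of insulin signalling, Thbs1 (0.270), a matrix glycoprotein, Fosl2 (0.270), Errfi1 (0.281), a feedback inhibitor of the EGF receptor, and Tiparp (0.283), an ADP-ribosyltransferase. Fosl2 had 12.1 ± 2.70 FPKM in opto SD, 5.23 ± 0.883 in opto contralateral and 5.54 ± 1.68 in opto sham, and 11.2 ± 2.35 in KCl SD, 5.80 ± 1.37 in KCl contralateral and 6.27 ± 0.833 in NaCl sham (SD, n = 3 each). Nr4a2 was 36th in likeness to Nr4a3, at 0.380. For Nr4a2, with an RMS spread of 0.451, the nearest were Syt10 (0.299), a synaptotagmin, Qrfpr (0.329), Stard6 (0.330), Etfbkmt (0.333) and Azin1 (0.336). These distances are large against the spread of Nr4a2 itself, so none of the genes compared followed it closely. Likeness is a description over libraries that share mice and systems.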

How the data were processed

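Poly(A) RNA of cortex was made into stranded libraries with a dUTP kit and sequenced from both ends on an Illumina NovaSeq, per the labels' protocols (18 libraries, 12 mice). Per the submitters' processing notes the tools include StringTie and the build is GRCm38. Versions and read counting are not given in the sources used here. The deposited tables, 6 in number, hold FPKM of each library. Their group columns are headed FPKM but were found to hold the deposited mean of log2(FPKM + 1). Other columns hold log2 fold changes, fold changes as ratios, p-values and q-values, all computed by the authors. FPKM of a library were identical across tables. Only genes whose larger group mean was at least 0.5 FPKM are listed, and 1 emptied line per file was left out.

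A filter at a mean of 0.5 FPKM over the libraries of a fit was applied, and limma 3.58.1 (R 4.3.3) was run on log2(FPKM + 0.5), with a prior variance that follows the mean. Fits used the 9 libraries of a system, all 18, or the 12 of stimulated mice with the mouse as a block. The fits of 9 and 18 libraries treat the hemispheres of a mouse as independent. Fold changes on this scale understate those of low genes. Exact tests were run in Python 3.11.15. By the titles, libraries that share a system and number are the 2 sides of 1 mouse, and their deviations from group means correlated at -0.0941 to 0.135. Sham mice share only the number, and their libraries correlated with those of stimulated mice of that number at -0.194 to 0.221. The pairing of hemispheres thus rests on the titles, and these correlations do not bear it out. The fits were tested on simulated data. Without read counts no counting interval is given.

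The members, gene lists and tests were chosen with earlier results of these data known. Named are the 3 genes, the called genes of each list (up to 3 by smallest p, otherwise the 1 with the smallest p), the 5 genes most like each member, and Npas4, Fos, Egr1 and Arc. Other names were chosen after their values were seen. A gene of the striatal marker list is not reported here, and the striatal sums are without it. Alternatives were pseudocounts of 0.1 and 1, no filter or one at 2 FPKM, median-of-ratios scaling, a constant prior variance, 6 libraries, replicate blocks, the authors' q-values and leaving out each library or mouse.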

Additional observations from a re-analysis of the deposited data

How the results depend on the processing

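Nr4a1 kept its direction and its call against the contralateral side over 6 mice, and against sham over both systems, under every alternative run (differences 2.81 to 3.004 and 2.06 to 2.40). By the q-values of the authors' deposited table it was not called: 0.0925 for opto SD against contralateral (difference 2.91), 0.233 for opto SD against sham (2.61) and 0.181 for KCl SD against contralateral (2.83). Nr4a3 was called for opto SD against contralateral with a replicate block over the 9 libraries (1.13), but not with a mouse block over the 6 stimulated libraries. A replicate block changed no other call of the 3 genes. Without the mouse block the 6-mouse values kept their calls, with 227 genes called in place of 207.

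Counts of called genes moved as follows. Opto SD against sham gave 41 with the 6 libraries alone in place of 62, and KCl SD against sham gave 4 with those and 1 with a constant prior variance in place of 9. Opto contralateral against sham gave 4 with 6 libraries, 2 with a constant prior variance and 0 with a replicate block in place of 1. KCl contralateral against sham gave 0 with 6 libraries and 0 with a replicate block in place of 1. Contralateral against sham over both systems gave 1 with a pseudocount of 0.1 and 1 with a filter at 2 FPKM in place of 2. The opto minus KCl difference against sham gave 1 with a pseudocount of 1 in place of 0, and opto sham against NaCl sham gave 1344 with a replicate block in place of 2060. The cause was not tested.

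Leaving out 1 library at a time gave 38 to 62 calls for opto SD against sham, 3 to 22 for KCl SD against sham, 18 to 40 for KCl SD against contralateral, 1 to 5 for opto contralateral against sham, 0 to 7 for KCl contralateral against sham and 1 to 4 over both systems. It gave 0 to 2 and 0 to 27 for opto minus KCl against sham and contralateral, 1224 to 1728 between shams and, without 1 mouse, 107 to 144 over 6 mice. Fewer libraries enter these fits.

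Over all alternatives, leaving out 1 library or mouse among them, differences of the members spanned 0 in several cases. For Nr4a2 they were -0.17 to 0.37 (KCl SD against contralateral), -0.0053 to 0.68 and -0.14 to 0.28 (KCl and opto contralateral against sham), and -0.43 to 0.17 and -0.15 to 0.39 (opto minus KCl against sham and contralateral). For Nr4a3 they were -0.16 to 0.25 and -0.41 to 0.052 (KCl and opto contralateral against sham), -0.18 to 0.064 (both systems) and -0.011 to 0.45 (opto minus KCl against sham). For Nr4a1 they were -0.091 to 0.32 (opto minus KCl against contralateral). The ranges that follow did not include 0. For Nr4a3 the differences were 0.71 to 0.95 for SD against sham over both systems and 0.78 to 1.02 over 6 mice. The exact tests gave -0.84 to -0.50 for Nr4a1 contralateral against sham and 0.25 to 0.55 for Nr4a2 SD against sham. For Nr4a1 between shams the differences were -0.96 to -0.29.

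Depth cannot be judged without read counts, and 3 mice per group limit the precision.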
